A study of Mus musculus with 4 samples.

Results

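Solute carriers are membrane proteins that move small molecules (sugars, amino acids, ions, metals, nucleosides, vitamins and metabolites) across the plasma membrane and the membranes of organelles. They are named Slc with a family number, the letter a and a member number, and families are grouped by sequence, so members of a family often carry like substrates. In macrophages they feed metabolism, set the pH and metal content of phagosomes and lysosomes, and return the products of digested material to the cytosol. The genes described here are the mouse genes whose symbol starts with Slc and a digit and that reached at least 50 expected counts in at least 1 library. The expected count is an estimate of the reads that belong to a gene. The rule leaves out 10 genes by name (Slc7a2, Slc7a11, Slc2a1, Slc16a1, Slc16a3, Slc40a1, Slc11a1, Slc11a2, Slc39a14 and Slc30a1), all of which reached the limit. It keeps 154 genes, of 9218 genes of any kind at that limit and 15935 genes listed in any library. Of 384 Slc symbols in the RefSeq table, 296 were listed in a library and 132 of these stayed under the limit.

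RNA came from bone marrow-derived macrophages of adult C57BL/6 mice, cells grown from femur and tibia marrow for 5 days in medium that holds M-CSF, which drives marrow cells to become macrophages. The marrow was wild type (WT) or came from mice with floxed Ezh2 alleles and a Cre recombinase at the lysozyme M locus (labelled EZH2-/-, here KO). That Cre is active in myeloid cells, so other cells of the culture would keep the gene. Ezh2 encodes a histone H3 lysine 27 methyltransferase. Cells of each genotype were left non-treated (NT) or given LPS, a bacterial ligand of Toll-like receptor 4, for 2 h. Each of the 4 groups (WT NT, WT LPS, KO NT and, last, KO LPS) had 1 library, with no label on pooling or on the number of mice, so replicate error is unknown throughout and no p-values are given.

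The 4 libraries held 5237782 to 5678451 expected counts. All 15 macrophage markers were listed in every library, with a summed level of 6649 to 7886 FPKM (fragments scaled to gene length and library size). Markers of erythroid cells, which depend on several carriers of iron and anions, summed to at most 0.65 FPKM, and Slc4a1, an erythroid anion exchanger, was listed in none. Ezh2 was at 2.84 FPKM (43 counts) and 2.52 FPKM (38) in the WT libraries without and with LPS, and at 2.06 FPKM (31) and 1.29 FPKM (18) in the KO libraries. A gene-level count does not show whether the floxed part was missing.

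The choice of members used the levels themselves. Of the 154, 121 reached 50 counts in all 4 libraries and 8 in 1 library only. Of those 8, 5 did so in WT NT and 1 each in WT LPS, KO NT and KO LPS. A further 15 reached it in both NT libraries and in neither LPS library, and 1 in both LPS libraries and in neither NT library. Members of this kind had to differ to some degree, so the counts below describe the set and support nothing beyond it. Just inside the limit were Slc25a26 (at most 50 counts), Slc22a4 (51) and Slc6a12 (53), and just outside it Slc25a23 (49), Slc25a40 (48) and Slc15a2 (48). In 32 members some counts were fractional, which shows reads shared with other genes. Exons of 47 members overlap exons of other genes in GENCODE M21, mostly on the opposite strand, and whether the counting used strand is not given in the sources used here. The set holds 3 symbols of proteins that are not carriers: Slc9a3r1, a scaffold that binds ion exchangers, Slc4a1ap and Slc7a6os.

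The members spanned mean levels of 1.01 to 328 FPKM over the 4 libraries, with a median of 12.3, against 13.2 for all genes at the limit. Slc6a6, the taurine transporter, was the most abundant at 358 FPKM without LPS and 259 with LPS in WT, and 398 and 299 in KO. With the libraries rescaled by their median ratio, as described below, its log2 difference with LPS was 0.01 in WT and 0.02 in KO. Next came Slc25a3 and Slc25a5, the mitochondrial carriers of phosphate and of ADP and ATP, at 217 to 245 FPKM and 185 to 259 FPKM over the libraries. Slc15a3, Slc3a2 (the heavy chain that pairs with several amino acid transporters), Slc37a2, Slc2a6, Slc39a1, Slc27a1 and Slc31a2 complete the 10 most abundant. These 10 held 36.4% of the members' summed FPKM in WT NT and 45.0% in WT LPS. All members together made up 1.44% of the counts in each NT library, 1.21% in WT LPS and 1.27% in KO LPS.

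Upstream sequence is shown for 3 members that stand at opposite ends of the LPS comparison below: Slc2a6 and Slc44a1, higher with LPS, and Slc35c1, lower. Each is the 250 bases before an annotated start site, from RefSeq in the build GRCm38.p6, written 5′ to 3′ on the strand of the gene. Slc2a6 lies on the minus strand at chr2:27027999-27028248, Slc44a1 on the plus strand at chr4:53440163-53440412, before one of its start sites, and Slc35c1 on the minus strand at chr2:92459795-92460044, upstream of the inner one of its start sites. No exon of GENCODE M21 lies in these windows. Capitals mark a match to the consensus of NF-kB sites.
Slc2a6: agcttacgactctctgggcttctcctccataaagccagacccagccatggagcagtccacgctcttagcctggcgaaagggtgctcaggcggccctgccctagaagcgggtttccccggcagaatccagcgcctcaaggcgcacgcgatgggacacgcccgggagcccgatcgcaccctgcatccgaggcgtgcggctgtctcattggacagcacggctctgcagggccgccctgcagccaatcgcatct
Slc44a1: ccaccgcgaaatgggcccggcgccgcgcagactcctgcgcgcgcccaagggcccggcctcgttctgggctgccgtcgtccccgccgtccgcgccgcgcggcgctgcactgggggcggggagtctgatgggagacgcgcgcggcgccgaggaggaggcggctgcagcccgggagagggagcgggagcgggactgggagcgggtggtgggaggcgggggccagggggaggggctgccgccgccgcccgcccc
Slc35c1: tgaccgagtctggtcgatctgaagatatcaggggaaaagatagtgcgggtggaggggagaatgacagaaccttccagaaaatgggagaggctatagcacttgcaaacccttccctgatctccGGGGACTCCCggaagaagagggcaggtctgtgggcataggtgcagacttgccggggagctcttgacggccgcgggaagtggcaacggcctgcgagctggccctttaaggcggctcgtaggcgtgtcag
Such windows were searched on both strands for the NF-kB consensus and another NF-kB form, which can overlap it, and for TGANTCA (AP-1), the interferon response core, TTGCNNAA (C/EBP), CACGTG (E-box), the CLEAR element (which contains the E-box) and TGACGTCA (CRE). A window was at hand for 118 of the 154 members, among them 5 of the 7 genes that were at least 2-fold higher with LPS in both genotypes and 17 of the 22 that were lower. None of those 5 held a match to any of the 8 motifs in these windows. Each motif alone was found in 0.737% to 10.9% of all genes at the count limit. The share of all genes with a match to any of them is not given, so 5 genes are too few to read. The NF-kB consensus was found in 15 of 118 members (12.7%), 3 of the 17 lower ones, and 10.9% of all genes at the count limit (8.23% of all genes in the table). The E-box was found in 23 members (19.5%) and 3 of the 17 lower ones, against 10.9% and 6.86%. The AP-1 motif was found in 11 members (9.32%) and 1 of the 17, against 5.52% and 7.82%. The C/EBP motif was found in 11 members (9.32%) and 4 of the 17 (23.5%), against 9.09% and 10.8%. A match is a description of these letters, and the windows are short.

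The first comparison asks how carrier expression differed after 2 h of LPS in WT macrophages. Most members were lower with LPS, as were most genes, and a small set was several times higher, led by a hexose carrier, a bicarbonate carrier, a choline carrier and a mitochondrial iron carrier. On the scale used here, log2 of the ratio of FPKM + 1, which understates the folds of low genes, 8 of 154 members were at least 2-fold higher, against 6.38% of all genes at the count limit. At least 2-fold lower were 34, that is 22.1% of members, against 16.6% of all genes. Of the members 32 were above 0 and 122 below, that is 79.2% below, against 78.9% of all genes. The median member stood at -0.59 and the median gene at -0.45 (25th to 75th percentile -0.95 to -0.15 for members and -0.82 to -0.09 for all genes). FPKM is relative to all reads of a library, so a level also depends on the other genes. With the libraries rescaled by their median ratio, which brings the median gene to -0.02, 16 members were at least 2-fold higher (10.4%, against 9.56% of all genes). At least 2-fold lower were 11 (7.14%, against 6.73% of all genes). The split thus turned from mostly lower to mostly higher among members past 2-fold only. Of all members, 92 (59.7%) were still below 0, against 51.4% of all genes, with the median member at -0.15. A member near -0.45 is therefore level with the bulk of genes. After that scaling 30 of the 122 members below 0 in WT, and 33 of 121 in KO, stood above 0, and none of those past 2-fold changed sides. Levels and directions below are on the deposited scale unless scaling is named.

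In KO macrophages the same comparison gave 10 members at least 2-fold higher (6.56% of all genes) and 26 lower (14.2% of all genes). After median-ratio scaling there were 19 higher (9.66% of all genes) and 11 lower (5.97% of all genes), with the median gene at -0.41 before and -0.02 after. The median member was at -0.49 before scaling and -0.10 after. With that scaling 88 members (57.1%) were below 0, against 51.6% of all genes. Of the members past 2-fold, 7 were higher in both genotypes (of 8 in WT and 10 in KO) and 22 were lower in both (of 34 in WT and 26 in KO). Those are 4.55% and 14.3% of members, against 524 genes (5.68%) and 1017 genes of all 9218. The 7 are 87.5% of the WT list and 70.0% of the KO list, where for all genes the shares were 89.1% and 86.6%. The 22 are 64.7% and 84.6% of their lists, where for all genes the shares were 66.5% and 77.6%. The WT and KO comparisons share no library.

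**Figure D1:**
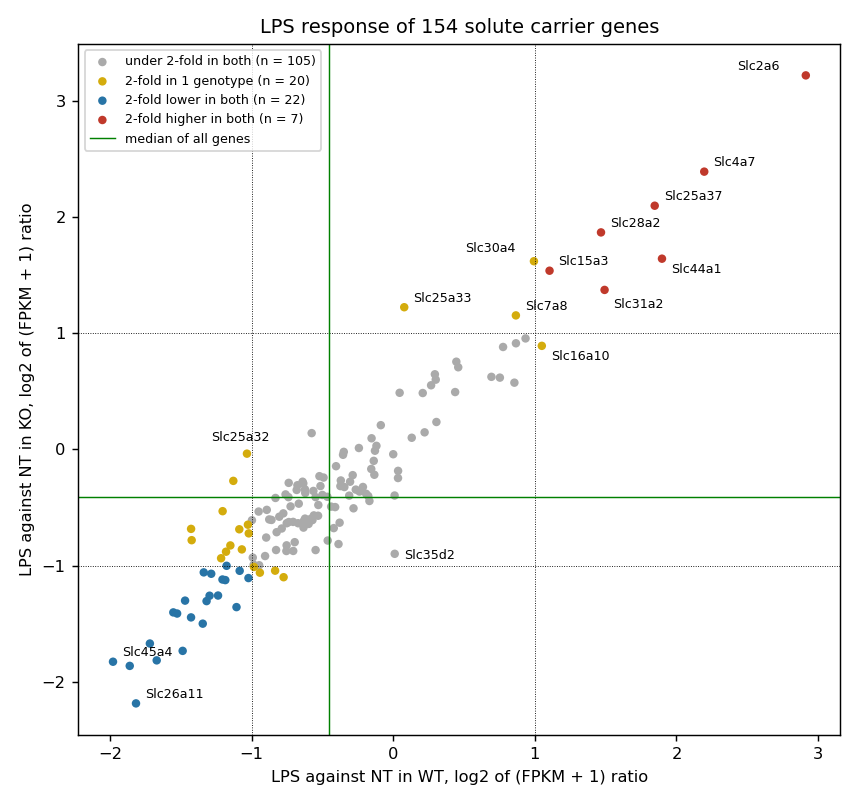
LPS response of the 154 members, as log2 of the ratio of FPKM + 1, in WT (horizontal) and KO (vertical), 1 point per gene. Dotted lines mark 2-fold and green lines the median of all genes. The 7 genes past 2-fold higher in both genotypes lie apart at the upper right, with Slc2a6 farthest, and 22 lie past 2-fold lower in both.

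Among sugar carriers, Slc2a6 had the highest fold of all members in both genotypes. It encodes GLUT6, a member of the facilitative glucose transporter family that resides on internal membranes (gene ID 227659, chromosome 2, 27021363 to 27028000 in GRCm38.p6, as are the positions below, from RefSeq). In WT its level was 25.6 FPKM without LPS and 199 with LPS (310 and 2398 counts), and in KO 16.7 and 164 (202 and 1828 counts). Both LPS libraries were far above both NT libraries. The ratio of LPS to NT was 7.79 in WT, with an exact 95% interval of 6.92 to 8.80, and 9.80 in KO (8.47 to 11.4). These intervals (Clopper-Pearson, from the counts of both libraries) reflect the counting of reads alone and leave out how cultures vary, and PCR copies of one molecule are counted as separate reads. The other 3 members of its family, Slc2a3 (GLUT3), Slc2a8 and Slc2a9, were all lower with LPS in both genotypes, at log2 folds of -0.63 to -0.76 in WT, and stood at 2.62 to 12.3 FPKM. Slc2a1, of the same family, was left out by name.

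Slc4a7, a sodium bicarbonate cotransporter that regulates intracellular pH (gene ID 218756, chromosome 14, 14703011 to 14799944), was second in both genotypes. It went from 5.49 FPKM in WT NT to 28.7 in WT LPS and from 7.20 in KO NT to 42.0 in KO LPS. Those are ratios of 5.23 (4.55 to 6.05) and 5.83 (5.15 to 6.61). The other carrier of its family among the members, the anion exchanger Slc4a2, was at 31.6 and 24.1 FPKM in WT and at 29.2 and 23.3 in KO, lower with LPS, but after median-ratio scaling its log2 folds were 0.09 in both genotypes. Exons of Fastk overlap 1141 bases of its exons on the opposite strand.

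Slc44a1 encodes a choline transporter of the plasma membrane (gene ID 100434, chromosome 4, 53440387 to 53622478). WT cells held 16.6 FPKM without LPS and 64.5 with LPS, and KO cells 29.6 and 94.3, ratios of 3.89 (3.40 to 4.46) and 3.19 (2.87 to 3.55). In each state the KO library was above the WT library. Its deposited length, which enters the FPKM, differed more between libraries than that of any other member, 3025 and 2536 bases in WT without and with LPS, and 2807 and 2569 bases in KO. Its log2 ratio of counts per total was 1.70 in WT and 1.54 in KO, where that of FPKM was 1.96 and 1.67. The choline-like carrier Slc44a2, of the same family, went the other way, from 19.2 to 10.6 FPKM in WT and from 17.3 to 11.3 in KO.

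Slc25a37, mitoferrin 1, brings iron into mitochondria for haem and iron-sulfur cluster synthesis (gene ID 67712, chromosome 14, 69241848 to 69285544). It was at 12.5 and 47.6 FPKM in WT without and with LPS and at 8.83 and 41.0 in KO. The ratios were 3.80 (3.34 to 4.34) and 4.65 (3.99 to 5.42). Its paralog Slc25a28, mitoferrin 2, was nearly level, between 11.9 and 13.8 FPKM in all libraries (log2 folds of 0.32 in WT and 0.38 in KO after median-ratio scaling). Markers of erythroid cells, where mitoferrin 1 is best known, were at or near 0 in all libraries.

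The copper transporter Slc31a2 (CTR2, gene ID 20530, chromosome 4, 62280393 to 62298412) had 50.9 FPKM without LPS and 145 with LPS in WT, and 53.8 and 141 in KO. The ratios were 2.85 (2.58 to 3.15) in WT and 2.62 (2.37 to 2.89) in KO. Its neighbour Slc31a1, the high-affinity copper importer CTR1 (62360583 to 62391769), was higher by less than 2-fold, from 28.7 to 49.0 FPKM in WT and from 28.2 to 43.8 in KO. Both copper carriers were thus above the bulk of genes in both genotypes.

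Slc28a2, a sodium-coupled nucleoside importer (gene ID 269346, chromosome 2, 122426357 to 122461152), went from 11.3 to 32.9 FPKM in WT and from 7.72 to 30.8 in KO. These are ratios of 2.92 (2.53 to 3.38) and 3.99 (3.36 to 4.75), and its counts were fractional, so reads are shared with another gene. Slc15a3, a proton-coupled carrier of histidine and small peptides in endolysosomes (gene ID 65221, chromosome 19, 10842544 to 10857915), had 127 FPKM without LPS and 275 with LPS in WT, and 88.9 and 260 in KO. Its ratios were 2.16 (2.04 to 2.29) and 2.92 (2.73 to 3.13). Exons of Tmem132a overlap 1541 bases of its exons on the opposite strand. For Slc2a6, Slc25a37, Slc28a2 and Slc15a3 the NT level was lower in KO than in WT, and the ratio of KO to WT was nearer to 1 with LPS.

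A further 4 members passed 2-fold in 1 genotype only, and the values show that the other genotype lay close to the limit for 3 of them. Slc16a10, a transporter of aromatic amino acids, was at 35.7 FPKM in WT and 39.7 in KO without LPS and at 74.4 or above in both with LPS, log2 folds of 1.05 and 0.89. Slc7a8, the light chain of a neutral amino acid exchanger, had log2 folds of 0.87 in WT (39.0 to 71.8 FPKM) and 1.15 in KO (26.4 to 59.98 FPKM). The zinc transporter Slc30a4 was at 0.99 in WT (4.38 to 9.71 FPKM) and 1.62 in KO (5.42 to 18.7 FPKM). Slc25a33, a mitochondrial carrier of pyrimidine nucleotides, was the exception, level in WT at 2.82 and 3.03 FPKM (30 and 32 counts) and higher in KO at 1.79 and 5.51 FPKM (19 and 54 counts). Its LPS ratio was 1.07 (0.632 to 1.83) in WT and 3.08 (1.80 to 5.50) in KO. It passed the count limit through KO LPS alone, so the choice of members favoured a higher level in that library.

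**Figure D2:**
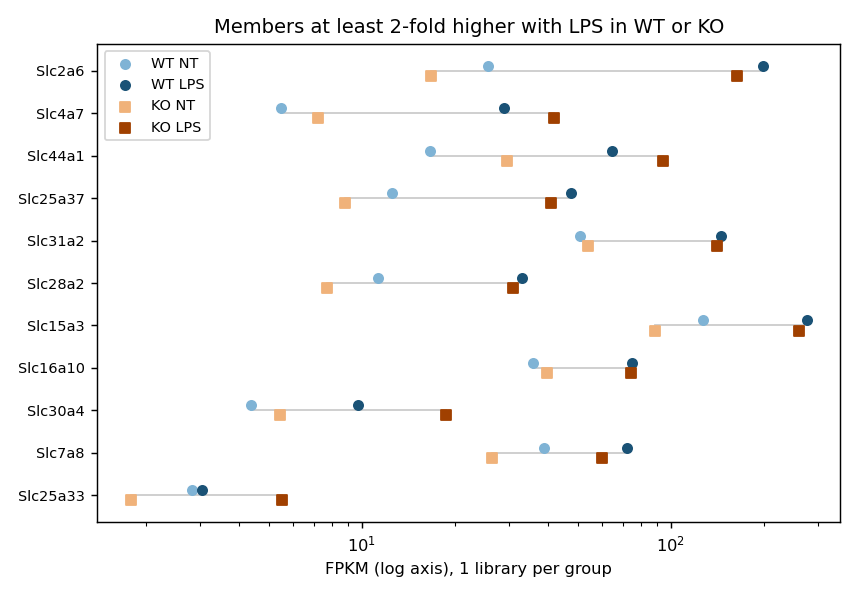
FPKM (log axis) of the 11 members at least 2-fold higher with LPS in WT or KO, with 1 point per library: circles for WT, squares for KO, light for NT and dark for LPS. For each gene both dark points lie to the right of both light points, by the least for Slc25a33, at 3.03 FPKM in WT LPS against 2.82 in WT NT.

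Members at least 2-fold lower in both genotypes came from many families. Slc29a3, the lysosomal nucleoside exporter ENT3 (gene ID 71279, chromosome 10, 60712072 to 60752849), had 41.9 FPKM without LPS and 10.8 with LPS in WT, and 36.4 and 9.28 in KO. Its ratios were 0.258 (0.227 to 0.292) and 0.255 (0.222 to 0.292). Slc36a1, a proton-coupled amino acid carrier of lysosomes, went from 13.3 to 3.50 FPKM in WT and from 12.4 to 2.80 in KO. Both NT libraries stood above both LPS libraries for these genes. Slc66a1, the lysosomal exporter of cationic amino acids, went from 16.6 to 5.55 FPKM in WT and from 16.7 to 5.51 in KO. Slc17a5, the lysosomal sialic acid exporter sialin, was at 27.5 and 10.6 FPKM in WT and at 31.6 and 12.6 in KO. Slc46a3, another lysosomal carrier, was lower too, at 7.77 and 3.07 FPKM in WT and at 12.7 and 4.33 in KO, while the endolysosomal Slc15a4 stopped just short of the limit, with log2 folds of -0.99 in both genotypes. After median-ratio scaling Slc29a3 and Slc36a1 were still at least 2-fold lower in both genotypes and Slc66a1 in KO, while Slc17a5 (-0.85 in both) and Slc46a3 (-0.72 in WT and -0.98 in KO) were not. Slc15a3, of the same compartment as Slc15a4, was higher.

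The lowest fold of all members in WT was that of Slc45a4, of the proton-coupled sugar carrier family, at 16.0 and 3.30 FPKM without and with LPS (ratio 0.207, 0.161 to 0.263). In KO it was at 18.2 and 4.42 FPKM. Slc26a11, of the sulfate transporter family, was lowest in KO, at 22.2 and 4.10 FPKM (ratio 0.185, 0.137 to 0.244), and was at 19.4 and 4.80 in WT. Other members far below the bulk of genes were Slc35c1, which brings GDP-fucose into the Golgi (15.8 to 4.09 FPKM in WT and 16.8 to 4.58 in KO), and the zinc importer Slc39a3 (10.5 to 3.09 and 9.78 to 2.24). The thiamine transporter Slc19a2 had 88 counts without LPS and 19 with LPS in WT, and 82 and 19 in KO. It reached the count limit in the NT libraries only, which favoured a lower level with LPS. Slc25a36 and Slc25a45, mitochondrial carriers, had log2 folds of -1.55 and -1.53 in WT and of -1.40 and -1.41 in KO. Each of the 7 genes of this paragraph remained at least 2-fold lower in both genotypes after median-ratio scaling.

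More abundant members were among the 22 as well. Slc37a2, a sugar phosphate exchanger of the endoplasmic reticulum that is abundant in macrophages, went from 135 to 62.9 FPKM in WT and from 177 to 85.2 in KO, ratios of 0.467 (0.440 to 0.496) and 0.482 (0.456 to 0.508). Slc43a2, a transporter of large neutral amino acids, was at 81.7 and 34.1 FPKM in WT and at 81.3 and 33.4 in KO. Slc37a2 and Slc43a2 had log2 folds of -1.09 and -1.24 in WT, which relative to the median gene are -0.63 and -0.78, under 2-fold. The remaining genes of the 22 were Slc12a9, Slc25a44, Slc16a13, Slc25a38, Slc35e2, Slc5a3, Slc25a30 and Slc36a4. Some of these, such as Slc16a13, Slc25a38 and Slc25a30, reached the count limit in the NT libraries only, which favoured a lower level with LPS.

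**Figure D3:**
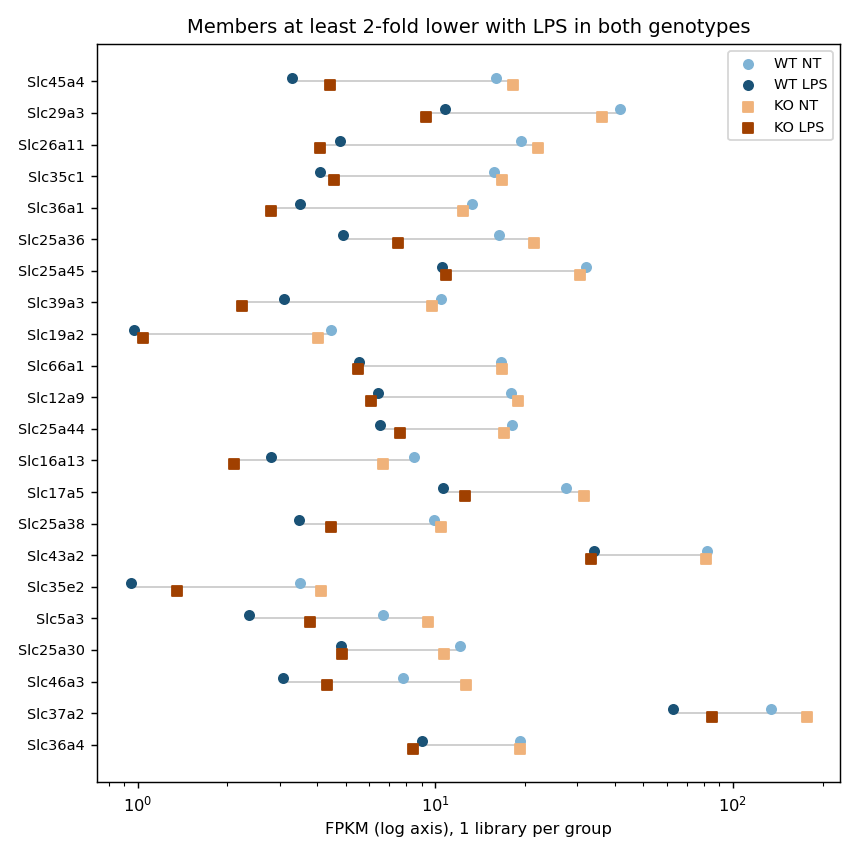
FPKM (log axis) of the 22 members at least 2-fold lower with LPS in both genotypes, ordered by the WT fold, with 1 point per library: circles for WT, squares for KO, light for NT and dark for LPS. Both dark points lie to the left of both light points in each row. Levels run from 0.95 FPKM (Slc35e2 in WT LPS) to 177 (Slc37a2 in KO NT).

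The members were grouped into substrate classes by family number. Genes left out by name, such as Slc2a1, Slc7a2 and Slc7a11, are in no class. Beside the counts below, 16.6% of all genes were at least 2-fold lower in WT and 14.2% in KO, and 78.9% and 77.2% were below 0 (51.4% and 51.6% after median-ratio scaling). The nucleotide sugar class holds all 19 members of family Slc35, and whether each carries nucleotide sugars was not checked. Nucleotide sugar carriers supply the Golgi and the endoplasmic reticulum with substrates for glycosylation. Of the 19, 18 were below 0 in WT and 5 (26.3%) were at least 2-fold lower, with a median log2 fold of -0.60. None was 2-fold higher. In KO 17 were below 0 and 3 (15.8%) past 2-fold, with a median of -0.64. After median-ratio scaling 15 were below 0 in WT and 17 in KO, with 1 past 2-fold in each. Their summed level went from 360 to 208 FPKM in WT and from 366 to 221 in KO. Only 4 of the 19 in WT and 3 in KO lay above the median gene.

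Of 10 sugar and polyol carriers, all but Slc2a6 were below 0 in each genotype (8 of 10 in WT and 9 in KO after median-ratio scaling) and 4 were at least 2-fold lower (1 after scaling), with medians of -0.85 in WT and -0.88 in KO. The 4 in WT were Slc45a4, Slc5a3, the myo-inositol transporter, and Slc37a4 and Slc37a2 of the sugar phosphate family. In KO Slc37a3 took the place of Slc37a4. With Slc2a6 at 199 and 164 FPKM after LPS, the summed level of the class was higher with LPS, 235 to 298 FPKM in WT and 280 to 288 in KO.

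Of 29 mitochondrial carriers (family Slc25), 26 were below 0 in each genotype (17 in WT and 15 in KO after median-ratio scaling), and Slc25a37 was 2-fold higher in both. At least 2-fold lower were 9 in WT (31.0%) and 5 in KO (17.2%), the KO share near that of all genes, and after scaling 3 and 2. The class medians, -0.58 and -0.40, lay near those of all genes. The abundant Slc25a3 was at 242 and 217 FPKM in WT, a log2 fold of -0.16 that became 0.32 after scaling. Slc25a44, a carrier of branched-chain amino acids, went from 18.1 to 6.54 FPKM in WT and from 17.0 to 7.63 in KO. Slc25a15, an ornithine carrier of the urea cycle, was at 4.14 and 0.91 FPKM in WT and at 3.34 and 1.70 in KO. It too reached the count limit in the NT libraries only.

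Amino acid carriers differed in direction within families as well as between them. The class, by family number, also holds Slc43a3, named below as a purine nucleobase carrier. It leaves out amino acid carriers of other families, such as Slc16a10 and Slc66a1, described above. Of the 21 in the class, 3 were at least 2-fold lower in each genotype (14.3%, near the share of all genes), namely Slc36a1, Slc43a2 and Slc36a4. In KO Slc7a8 was 2-fold higher. After median-ratio scaling 1 was at least 2-fold lower in each genotype. With that scaling 3 were at least 2-fold higher in WT and 4 in KO, against 9.56% and 9.66% of all genes. Of the 7 members with an Slc7 symbol, 5 were above 0 in WT (median 0.30), among them Slc7a1, an arginine and lysine importer, at 9.54 and 13.4 FPKM in WT and at 7.22 and 12.9 in KO. Slc7a7, a partner of Slc3a2 in exchange of cationic amino acids, was at 11.5 and 16.2 FPKM in WT and at 12.9 and 21.6 in KO. Of 6 members of family Slc38, sodium-coupled neutral amino acid transporters and relatives, 5 were below 0 in WT, and the sixth, Slc38a1, was at 18.2 and 34.0 FPKM in WT and at 18.1 and 34.9 in KO. Slc38a2 of the same family was lower, from 63.6 to 43.7 FPKM in WT and from 62.9 to 42.0 in KO. After median-ratio scaling its log2 folds were -0.06 in WT and -0.15 in KO, near level.

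Among 20 metal carriers the median log2 fold was -0.33 in WT and -0.32 in KO, and 7 and 8 were above 0 (11 in each after median-ratio scaling). Besides the copper carriers and Slc30a4, the plasma membrane zinc importer Slc39a1 was higher by less than 2-fold, from 82.6 to 102 FPKM in WT and from 85.2 to 130 in KO. Slc39a3 was at least 2-fold lower in both genotypes, and Slc30a5, which loads zinc into the secretory pathway, in KO alone (ratio 0.544, 0.467 to 0.633, in WT and 0.468, 0.401 to 0.546, in KO). The 21 carriers of inorganic ions had medians of -0.40 and -0.35 (0.04 in both after median-ratio scaling), with Slc4a7 the only one past 2-fold higher on the deposited scale. The potassium chloride cotransporter Slc12a4 followed at 21.7 and 37.8 FPKM in WT and at 21.4 and 40.3 in KO, and Slc12a9 of that family was lower, at 17.9 and 6.44 and at 19.0 and 6.07.

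Of 15 carriers of vitamins, lipids, choline and haem, 4 were at least 2-fold lower in WT (26.7%) and 2 in KO (13.3%, near the share of all genes), and 1 in each after median-ratio scaling. The haem carrier Slc48a1 went from 104 to 49.2 FPKM in WT and from 72.9 to 39.7 in KO. The riboflavin transporter Slc52a2 was at 8.06 and 3.14 FPKM in WT and at 7.10 and 5.71 in KO. Slc49a4 was higher by just under 2-fold on the log2 scale, at 0.93 in WT and 0.95 in KO. Smaller classes had 2 to 5 members each: mono- and dicarboxylate carriers (5), endolysosomal carriers of peptides and organic anions (4), nucleoside carriers (3) and organic cation carriers (2).

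**Figure D4:**
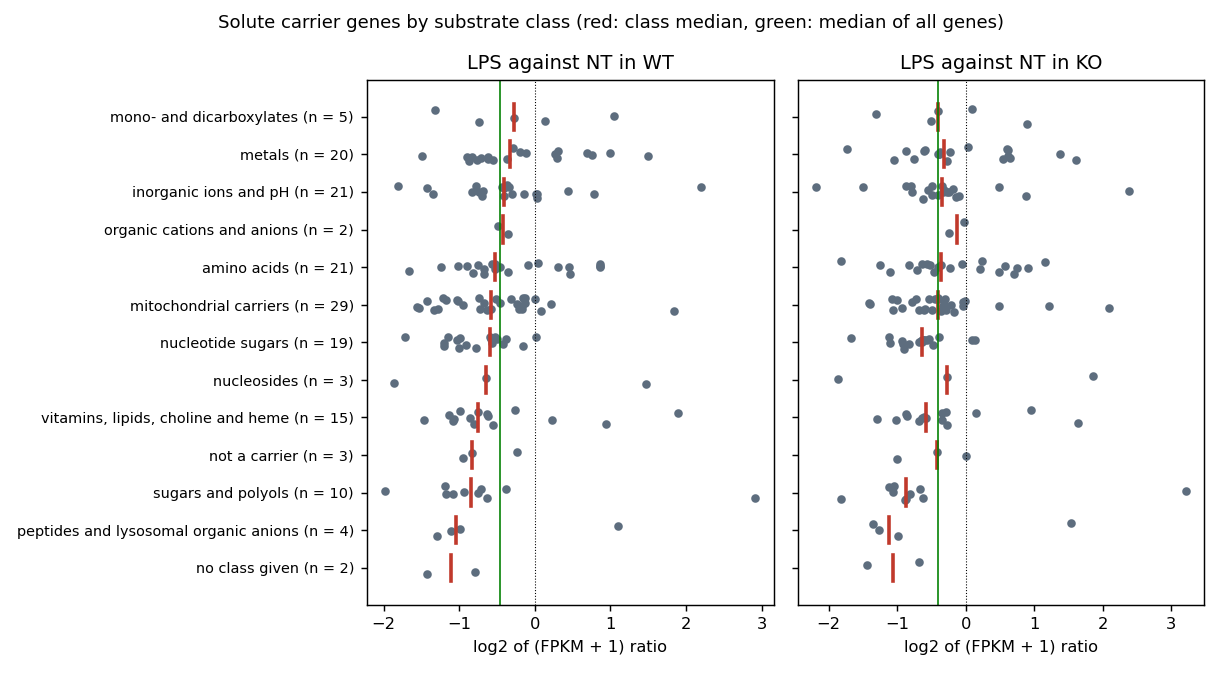
Log2 of the ratio of FPKM + 1 for LPS against NT in WT (left) and KO (right), with 1 point per member in its substrate class. Red bars are class medians and the green line is the median of all genes, -0.45 in WT and -0.41 in KO. Sugar carriers lie to the left but for Slc2a6 (2.91 and 3.22). No member of the nucleotide sugar class lies beyond 2-fold on the right.

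Members of 1 family often differed in direction. The members belong to 43 families by symbol, 31 of them with at least 2 members, and in 15 of these the WT folds lay on both sides of 0 (20 after median-ratio scaling). In families Slc16 and Slc25, and after that scaling in Slc25 alone, members passed 2-fold in both directions: Slc16a10 was higher while Slc16a13 went from 8.48 to 2.80 FPKM in WT. Slc16a13 reached the count limit in the NT libraries only, so the choice of members favoured its lower level with LPS. The pyrimidine nucleotide carriers Slc25a33 and Slc25a36 had log2 folds of 1.22 and -1.40 in KO, and of 0.08 and -1.55 in WT. Slc25a33 passed the count limit through KO LPS alone, so the choice of members favoured its higher value there. The endolysosomal pair Slc15a3 and Slc15a4 stood at 1.10 and -0.99 in WT and at 1.54 and -0.99 in KO. In family Slc43 the purine nucleobase carrier Slc43a3 was at 0.86 and 0.57 where Slc43a2 was at -1.24 and -1.26. Nucleoside carriers of the concentrative and equilibrative families showed the same contrast, with Slc28a2 at 1.47 and 1.87, Slc29a3 at -1.86 in both, and the plasma membrane carrier Slc29a1 at -0.64 and -0.28 (-0.20 and 0.12 after scaling).

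The next comparison asks what differed between KO and WT cells before stimulation. No member was at least 2-fold apart on the log2 scale, in either direction, where 0.239% of all genes were higher and 0.282% lower in KO. The median member was at -0.01 and the median gene at 0.01. By counting error alone, the interval of the ratio lay above 1 for 19 members (15.5% of all genes) and below 1 for 25 (12.9% of all genes). With 1 library a group, an interval off 1 says that 2 libraries differ, not 2 genotypes.

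With LPS, again no member was at least 2-fold apart, where 0.542% of all genes were higher and 0.51% lower in KO. The intervals of 31 members lay above 1 (22.8% of all genes) and of 19 below (10.2% of all genes), with the median member at 0.09 and the median gene at 0.08. In both states the interval lay above 1 for 11 members and below 1 for 12, that is 7.14% and 7.79% of members, against 8.33% and 5.51% of all genes. These shares are close to the background. The 2 comparisons share no library.

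Slc13a3, a sodium-coupled carrier of dicarboxylates such as succinate (gene ID 114644, chromosome 2), was highest in KO against WT in both states. The WT libraries held 8.32 FPKM without LPS and 9.20 with LPS (153 and 168 counts), and the KO libraries 17.5 and 18.9 (322 and 320 counts). Both KO libraries were above both WT libraries. The ratio was 2.11 (1.73 to 2.57) without LPS and 2.05 (1.69 to 2.48) with LPS, while its log2 folds, with 1 added to each FPKM, were 0.99 and 0.96 and so just under the limit.

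Slc9a9, a sodium proton exchanger of endosomes, followed the same order, at 17.5 FPKM without LPS and 12.9 with LPS in WT, and 32.8 and 22.9 in KO. Its ratio was 1.88 (1.65 to 2.15) without LPS and 1.78 (1.52 to 2.09) with LPS. Slc44a1 was higher in KO by 1.78 (1.54 to 2.07) and 1.46 (1.34 to 1.59) times. Slc5a3, the myo-inositol transporter, was 1.42 and 1.60 times as high, and Slc37a2 1.31 and 1.35 times. The other members above 1 in both states were Slc25a36, Slc4a7, Slc12a7, Slc38a6, Slc35b2 and, by the smallest margin, Slc6a6 (1.11 and 1.16 times).

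Lower in KO in both states was Slc22a4, the ergothioneine transporter, which rests on few reads. It had 51 and 37 counts in WT without and with LPS (3.97 and 2.90 FPKM), and 21 and 19 in KO (1.64 and 1.60 FPKM). Slc22a4 passed the count limit through WT NT alone, so the choice of members favoured a lower KO level without LPS. How much of the difference without LPS came from that choice cannot be told. The ratio was 0.413 (0.236 to 0.699) without LPS and 0.552 (0.300 to 0.984) with LPS. Slc25a22, a mitochondrial glutamate carrier, was at 26.9 FPKM in each WT library and at 18.0 and 17.4 in KO, ratios of 0.669 (0.570 to 0.783) and 0.649 (0.550 to 0.763). The interval of its LPS to NT ratio was 0.868 to 1.15 in WT and 0.810 to 1.16 in KO, and after median-ratio scaling the ratio was 1.39 and 1.30. Slc2a6 was at 0.652 times the WT level without LPS (0.544 to 0.781) and at 0.821 with LPS (0.772 to 0.872), and Slc15a3 at 0.697 and 0.944, Slc7a8 at 0.678 and 0.835, and Slc25a37 at 0.706 and 0.862. For these 4 carriers the ratio of KO to WT was nearer to 1 with LPS than without. The phosphate importer Slc20a1, the creatine transporter Slc6a8, the haem carrier Slc48a1, the mitochondrial citrate carrier Slc25a1, the mitochondrial glutathione carrier Slc25a39 and the zinc carrier Slc39a7 made up the rest of the 12, at ratios of 0.698 to 0.859 without LPS.

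**Figure D5:**
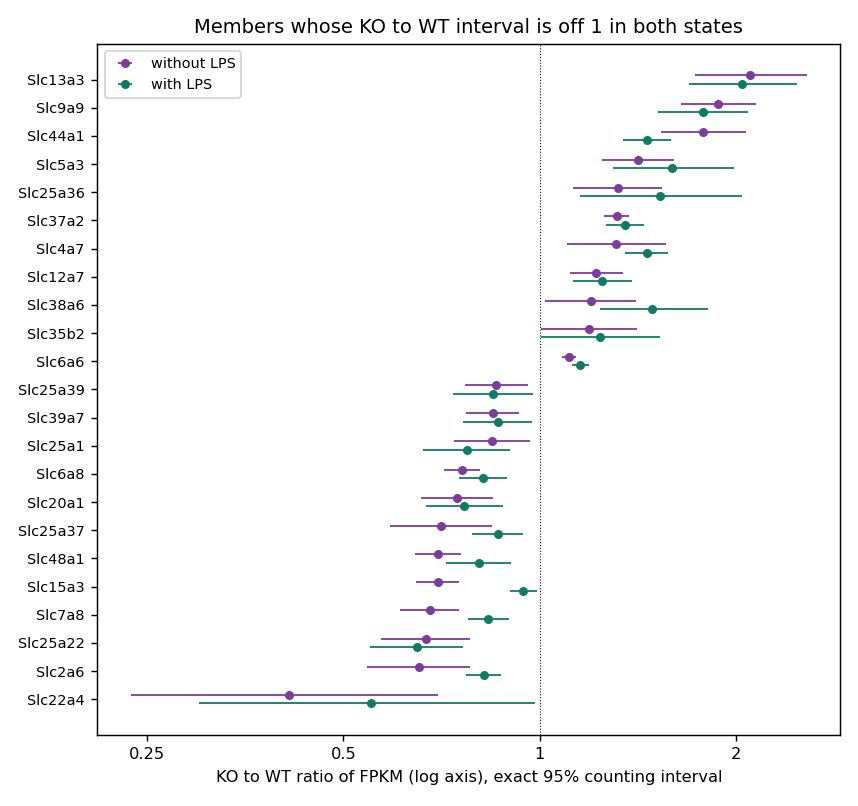
KO to WT ratio of FPKM (log axis) without LPS (purple) and with LPS (green) for the 23 members whose interval lies off 1 on the same side in both states, with bars for the exact 95% counting interval. Slc13a3 is at 2.11 and 2.05 at the top and Slc22a4 at 0.413 and 0.552 at the bottom, where the bars are widest.

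Markers of other cells differed between genotypes as well. The summed level of 15 neutrophil markers was 427 FPKM in WT and 714 in KO without LPS, and 463 and 645 with LPS, with 14 or 15 listed in each library. Most of the sum was S100a8 and S100a9. Mpo, Prtn3, Cebpe and Ly6g were lower in KO without LPS, and Cebpe and Ly6g with LPS. Osteoclast markers summed to 45.8 FPKM in WT and 78.9 in KO without LPS, and 32.3 and 52.7 with LPS. Most of that sum was Atp6v0d2, and Ctsk was slightly lower in KO. The sum of 9 fibroblast and stromal markers was 8.72 FPKM in WT and 4.17 in KO without LPS, and 8.96 and 4.11 with LPS, with 7 to 9 listed. Most of that sum came from collagen genes. Dcn was higher in KO without LPS (0.48 against 0.29 FPKM) and Pdgfrb with LPS (1.22 against 0.91). The part of these other cells in the carrier differences was not tested. In such bulk samples a change in the share of a cell type and a change of RNA per cell cannot be told apart.

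The last comparison sets the LPS response of KO against that of WT. For 145 of 154 members (94.2%) the log2 folds differed by less than 0.5, against 90.4% of all genes, and the median difference, KO minus WT, was 0.07 (0.05 for all genes). The difference reached 1 for a single member, Slc25a33 (1.15), described above, which passed the count limit through KO LPS alone. Slc25a32, which carries folate or flavin into mitochondria, followed just under 1, at 5.96 and 2.40 FPKM in WT and at 4.47 and 4.33 in KO. Slc52a2 (0.86), Slc25a15 (0.74) and Slc35e4 (0.72) came next. These genes were lower with LPS in WT and less so, or not, in KO. At the other end was Slc35d2, a carrier of nucleotide sugars, with a difference of -0.91. It was at 4.74 and 4.78 FPKM in WT and at 6.05 and 2.78 in KO, from 61.3, 61.4, 78.1 and 33.1 counts. Slc50a1, Slc12a2, Slc26a11 and Slc35c2 followed, at -0.43 to -0.33. No difference was tested.

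Other transport genes, taken by symbol, gave a frame for these values. Of 27 genes with an Abc symbol, none was 2-fold higher in either genotype with LPS and 2 were lower in each (7.41%). Their medians were -0.49 in WT and -0.40 in KO. Most Abc genes encode pumps driven by ATP, but Abce1, Abcf1, Abcf2 and Abcf3, which are in the list, do not encode membrane transporters. The cholesterol exporter Abcg1 was lowest, at 44.7 and 11.5 FPKM in WT and at 52.6 and 16.0 in KO. Of 20 P-type ATPases, which pump ions and flip lipids, 1 was 2-fold lower in each genotype, the lysosomal Atp13a2 (127 to 53.6 FPKM in WT), and the medians were -0.10 and 0.13, above those of all genes. The list of carriers under other symbols holds 35 genes, and whether each is a carrier was not checked. Of these, 6 were 2-fold lower (17.1%, near the share of all genes) and 1 higher in WT. The lowest was Mfsd12, a lysosomal carrier, at 180 and 41.1 FPKM in WT and at 142 and 33.4 in KO. The one higher was Mfsd7a, from 3.22 to 15.5 FPKM in WT and from 2.81 to 11.2 in KO. In that list 1 gene, Slco2b1, an organic anion transporter, was at least 2-fold higher in KO NT than in WT NT, at 4.79 and 1.05 FPKM.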

How the data were processed

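RNA of 4 libraries of bone marrow-derived macrophages, 1 per group, was sequenced. Per the submitters' processing notes, Bowtie, RSEM and the build mm10 were used; versions, roles and strand settings were not given in the sources used here. Per the file headers, each deposited table gives per gene the length, the expected count and the FPKM, as the authors made them. Gene IDs were matched to RefSeq symbols (15897 of 15935), and a gene missing from a table was set to 0.

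From these values the log2 of the ratio of FPKM + 1 was computed for 4 comparisons over the 9218 genes of at least 50 expected counts in any library, with 2-fold as the limit. Exact 95% Clopper-Pearson intervals of a ratio of FPKM came from the 2 counts and cover counting error only. No p-value was computed, since each group has 1 library. Python 3.11.15, pandas 2.3.3, numpy 2.4.6, scipy 1.17.1 and matplotlib 3.10.9 were used, and the calculation was tested on simulated data. Groups follow the labels, which do not say whether NT and LPS cells of a genotype shared a culture. Alternatives were pseudocounts of 0.1 and 5, a limit of 100 counts or none, a filter of 1 FPKM, median-ratio scaling and CPM from the expected counts. The members and lists were chosen with earlier results of these data known, and the motifs after the values were seen. Named are the members past 2-fold (at most 10 a direction, or the 5 highest and lowest), the 10 most abundant, the 5 highest and lowest differences of LPS response, up to 5 per substrate class, paralogs on opposite sides of 0, those beside the count limit, and up to 4 genes per list of other transport genes. Members beyond that rule, such as the rest of the 22 genes lower in both genotypes and of the 23 whose genotype intervals lie off 1, were named after their values were seen. Markers of T cells, B cells, mast cells and dendritic cells summed to 6.64 to 13.6, 0.76 to 3.71, 1.22 to 2.02 and 2.98 to 5.35 FPKM, of megakaryocytes to 56.1 to 75.9 and of osteoclasts to 32.3 to 78.9.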

Additional observations from a re-analysis of the deposited data

Results flagged for a closer look

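Slc3a2, the heavy chain shared by several amino acid exchangers, was on opposite sides of 1 with LPS in the 2 genotypes, each beyond counting error. In WT it had 175 FPKM without LPS and 165 with LPS, and in KO 141 and 163. The LPS to NT ratio was 0.940 in WT (0.889 to 0.995) and 1.16 in KO (1.09 to 1.23). After median-ratio scaling the ratios were 1.31 in WT and 1.55 in KO, both above 1, so the opposite directions hold on the deposited scale only. The KO NT library was the low one and the other 3 lay closer together. With 1 library a group the difference between genotypes was not tested, and the counts of Slc3a2 were fractional, so some reads are shared with another gene.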

How the results depend on the processing

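Scaling and the pseudocount moved the counts of members past 2-fold. Median-ratio scaling gave 16 higher and 11 lower with LPS in WT and 19 and 11 in KO, by the shift of the median gene given above. All 8 and 10 higher members were among the 16 and 19. A pseudocount of 5 left 14 lower members in WT and 13 in KO, since it shrinks the folds of low genes. Between genotypes, a pseudocount of 0.1 and CPM each gave 1 member 2-fold higher (Slc13a3) and 1 lower (Slc22a4) without LPS, and 2 higher (Slc13a3 and Slc35g1) with LPS, where 0 were past the limit at a pseudocount of 1. The other alternatives kept each count within 1.5 times. With LPS no member past 2-fold turned its direction under these alternatives, but median-ratio scaling moved 30 members in WT and 33 in KO from below to above 0, among them Slc6a6, Slc25a3, Slc25a5, Slc4a2 and Slc25a28 in both genotypes and Slc3a2 in WT. No paired analysis was possible because each group has 1 library and the labels carry no replicate numbers, and for the same reason no library could be left out. Members near 50 counts have wide intervals, as for Slc22a4 and Slc25a33, and at this depth smaller differences in such genes were not detectable.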
